A study of Homo sapiens with 4 samples.

Results

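The 59 genes described here lie on chromosome 6 between KLHDC3 and CASP8AP2 (chr6:43014103-89874436, GRCh38, annotation GENCODE 44), from the short arm across the centromere into the long arm. They were listed by symbol and chosen by their expression ratios of both enzalutamide-resistant lines to LNCaP, for which this stretch of the chromosome had been picked, so every value of RES-A or RES-B against LNCaP below is a description of that choice. All 59 were found among the 33538 genes of the matrices. Expression was taken as a mean of at least 10 CPM (UMIs of a gene per 1e+06 UMIs of its library) over the 4 libraries, which 35 members and 7460 genes in all passed. The other 24 members had means between 1 and 10 CPM, where 12627 genes had at least 1 CPM.

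Single-cell RNA sequencing had been carried out on LNCaP, a human prostate cancer line that responds to androgen, and on derivatives of it. The groups were LNCaP in 0.1% DMSO (the solvent) for 48 h, LNCaP in 10 µM enzalutamide, an anti-androgen, for 48 h (LNCaP-ENZ48), and a pair of resistant lines that were cultured with 10 µM enzalutamide once established, RES-A and RES-B. RES-A was derived under rising doses of enzalutamide and RES-B under a constant dose of the related anti-androgen RD-162, each by long culture of LNCaP, so line and drug history cannot be told apart. With 1 library in each group there was no replicate against which to read a difference or run a test, and each ratio compares 2 libraries.

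A stretch of chromosome carries genes of unrelated function, each with its own promoter, so the members form a neighbourhood on the map and not a pathway. Levels of neighbouring genes can move together when the number of copies of a segment or its chromatin differs, and neither was examined here. The members include subunits of the mitochondrial ribosome, RNA polymerase I and III, cullin ubiquitin ligases and the primase, all of which work with partners encoded elsewhere in the genome. They also include EEF1A1, the factor that brings aminoacyl-tRNA to the ribosome, and MYO6, a motor that moves toward the minus end of actin filaments and is abundant in prostate cancer cells.

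The libraries held 1782 kept cells in LNCaP, 4315 in LNCaP-ENZ48, 4569 for RES-A and 4061 for RES-B, with 50208831 to 60838227 UMIs (unique molecular identifiers, which count captured RNA molecules) per library. LNCaP cells were deeper, with a median of 27080 UMIs per cell against 12138 to 13676 in the other libraries. Of the luminal prostate markers checked, KRT8, KRT18 and EPCAM were present in all 4 libraries, while KLK3 was down to 2 UMIs in RES-A. PTPRC, KRT5, TP63 and CHGA, defining markers of leukocytes, basal and neuroendocrine cells, had 0 UMIs in every library, and the 6 markers of other cells, with PECAM1 and COL1A1, summed to 1.46 to 3.21 CPM per library. Pairs of libraries shared between 2 and 12 barcodes.

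Promoter sequences are shown for 4 members with 1 listed promoter each: BAG2 and TMEM14A, which were higher in both resistant lines, and MYO6 and ELOVL5, which were lower in both. RefSeq (GRCh38.p14) listed 78 promoters for 52 of the 59 members, and 7 members had none in the table used. The 250 bases before the RefSeq start of transcription are printed 5′ to 3′ on the gene's strand, at chr6:57172076-57172325 (plus strand) for BAG2, chr6:52670863-52671112 (plus) for TMEM14A, chr6:75748989-75749238 (plus) for MYO6 and chr6:53348951-53349200 (minus) for ELOVL5. Capitals mark GGGCGG (the core of the SP1 motif), CACGTG (an E-box) or TGTTCT (a core of steroid response elements), searched on both strands.
BAG2: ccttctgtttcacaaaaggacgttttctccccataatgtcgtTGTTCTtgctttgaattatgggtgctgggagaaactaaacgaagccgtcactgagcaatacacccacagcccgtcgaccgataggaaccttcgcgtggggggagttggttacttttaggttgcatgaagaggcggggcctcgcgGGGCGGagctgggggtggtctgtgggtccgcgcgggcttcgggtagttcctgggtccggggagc
TMEM14A: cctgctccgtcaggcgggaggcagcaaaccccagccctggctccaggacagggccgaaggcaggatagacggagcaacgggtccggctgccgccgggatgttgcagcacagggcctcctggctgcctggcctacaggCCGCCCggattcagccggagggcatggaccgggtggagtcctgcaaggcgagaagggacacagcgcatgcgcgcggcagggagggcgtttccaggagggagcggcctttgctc
MYO6: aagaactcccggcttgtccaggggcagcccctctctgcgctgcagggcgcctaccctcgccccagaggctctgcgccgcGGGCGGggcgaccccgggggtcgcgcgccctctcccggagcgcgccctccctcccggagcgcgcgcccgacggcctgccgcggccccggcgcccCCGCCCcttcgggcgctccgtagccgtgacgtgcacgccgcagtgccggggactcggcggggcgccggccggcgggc
ELOVL5: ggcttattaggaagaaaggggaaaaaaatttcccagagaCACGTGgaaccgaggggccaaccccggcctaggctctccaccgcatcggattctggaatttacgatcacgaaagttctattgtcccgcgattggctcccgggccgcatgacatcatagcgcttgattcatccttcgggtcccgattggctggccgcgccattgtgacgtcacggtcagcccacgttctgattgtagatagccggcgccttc
GGGCGG was found in 52 of the 78 promoters of members (66.7%), beside 64.2% of 13725 promoters of genes with at least 1 CPM and 42.6% of all 35116 promoters. CACGTG was in 9 (11.5%), beside 8.42% and 6.34%, and TGTTCT in 4 (5.13%), beside 7.78% and 12.4%. The median GC content was 63.2% in the members and 64.8% in promoters of genes with at least 1 CPM. The printed promoters of MYO6 and BAG2 both hold GGGCGG, as do 64.2% of promoters of genes with at least 1 CPM. A match is a match of letters, and binding was not measured.

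In the resistant lines the members were higher as a group, and more so in RES-B. Of the 35 expressed members, 23 were at least 1.2-fold higher in RES-A than in LNCaP and 4 were at least 1.2-fold lower, where 29% and 27.1% of all expressed genes were past these limits. In RES-B 31 were higher and 2 lower, beside 35.5% and 20.5% of all expressed genes. The median log2 ratio of the 35 members was 0.51 in RES-A and 0.93 in RES-B, or 1.43-fold and 1.91-fold, while that of all expressed genes was 0.02 and 0.11. Over all 59 members the medians were 0.49 and 0.88, with 37 higher and 9 lower in RES-A and 53 higher and 2 lower in RES-B. At that lower minimum of 1 CPM, 31.9% of all genes were higher and 30% lower in RES-A, and 36.9% and 24% in RES-B. The same 23 expressed members were past 1.2-fold higher in both lines, where 19.7% of all expressed genes were. With TMM scaling, which moves the median of all genes, 25.3% and 26.9% of all expressed genes were at least 1.2-fold higher in RES-A and RES-B. As the list was chosen for these ratios, nothing is read from the distance to the background.

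RES-B stood above RES-A in 32 of the 35 expressed members, beside 4403 of 7455 expressed genes with a ratio. Over all 59 members it did in 52, beside 7261 of 12608 genes with at least 1 CPM. Compared directly, 24 of 35 were at least 1.2-fold higher in RES-B and 1 was lower, beside 32.8% and 17.6% of all expressed genes, with a median log2 ratio of 0.45 against 0.09 for all expressed genes. The member that was lower in RES-B was GCLC.

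Exposure of LNCaP to enzalutamide for 48 h left the members near their starting levels. This comparison was not part of the choice of the region, although it shares the LNCaP library with the ratios above. FBXO9 and LMBRD1 of the 35 expressed members were at least 1.2-fold higher and 7 were at least 1.2-fold lower, beside 6.45% and 18.8% of all expressed genes. With TMM scaling 6 were higher, beside 12.8% of all expressed genes, and with DESeq2 size factors 6, beside 13.2%. Over all members 3 of 58 with a ratio were higher and 14 lower, where 9.95% and 23.4% of genes with at least 1 CPM were. The median log2 ratio of the 35 was -0.04, and that of all expressed genes was -0.07. Against LNCaP-ENZ48 in place of LNCaP, the resistant lines had member medians of 0.56 (RES-A) and 1.05 (RES-B), beside 0.10 and 0.20 for all expressed genes. In these comparisons 24 and 33 of the 35 were at least 1.2-fold higher, beside 35.6% and 44.3%, and 4 and 1 were lower, beside 21.4% and 16.6%. Of genes with at least 1 CPM, 38.2% and 44.8% were higher.

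**Figure D1:**
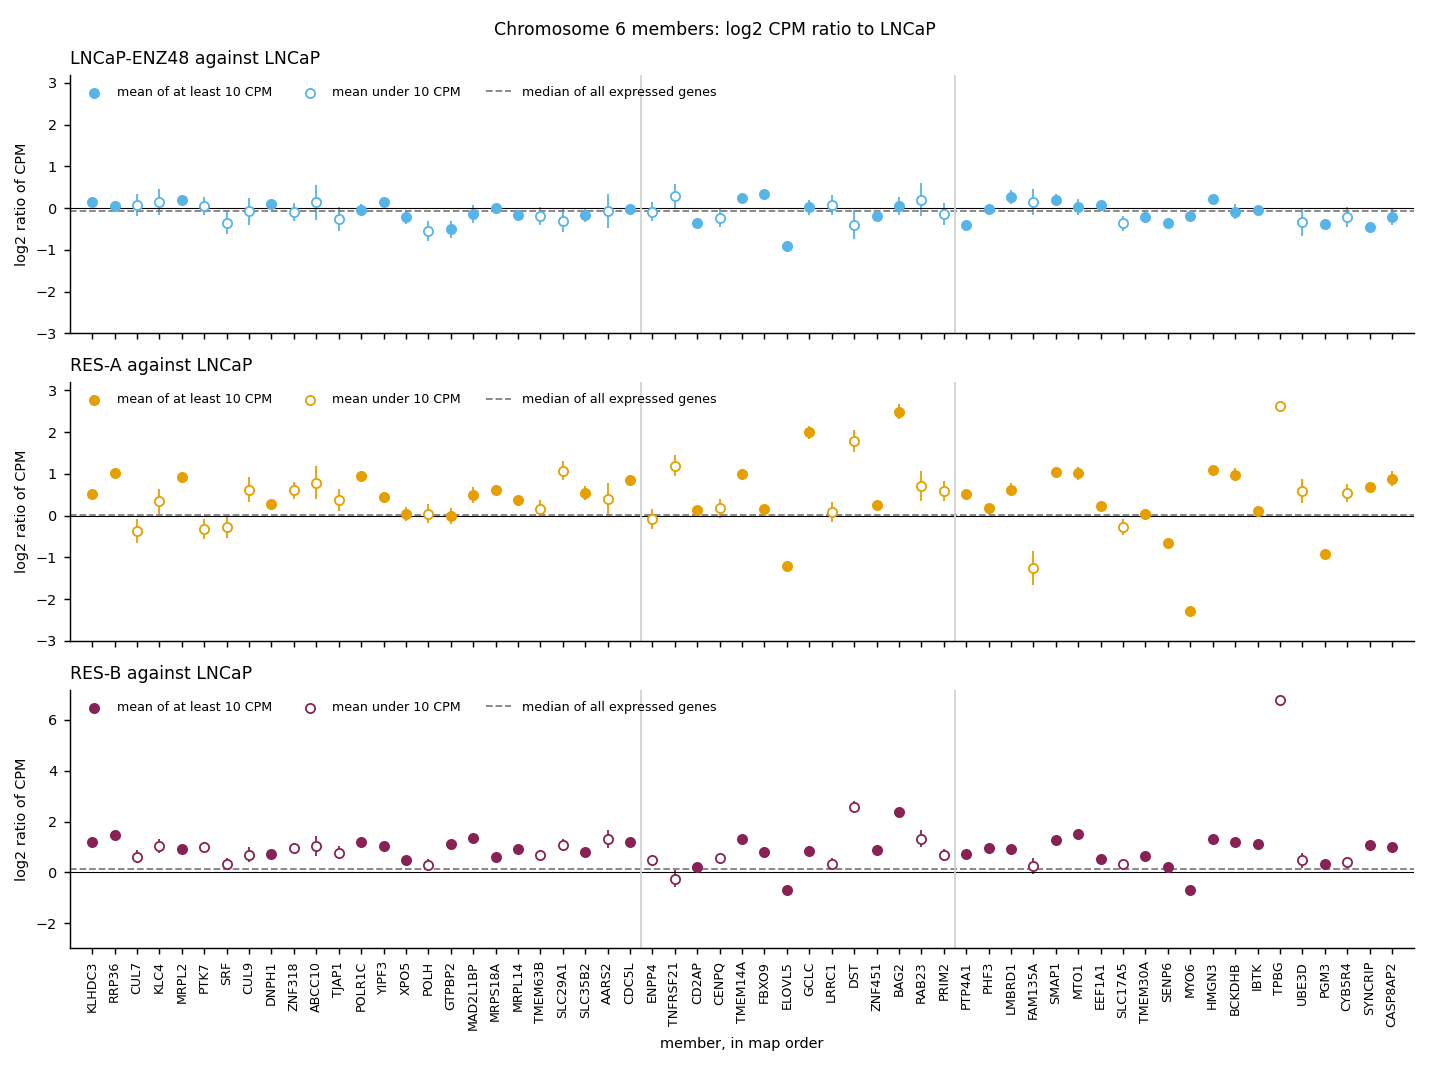
Log2 ratio of CPM against LNCaP (vertical axis) for the 59 members in map order (horizontal axis) in LNCaP-ENZ48, RES-A and RES-B. Filled points have a mean of at least 10 CPM and open points less. Vertical bars are 95% counting intervals. TPBG has none, as it had 0 UMIs in LNCaP, and in the resistant lines it is drawn at its ratio to 3 UMIs. The dashed line is the median of all expressed genes and grey lines part the 3 stretches of the interval. Points lie near 0 in LNCaP-ENZ48, mostly above 0 in RES-A and nearly all above 0 in RES-B, with MYO6 and ELOVL5 below 0 in both lines.

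Each stretch of the interval had medians above those of all expressed genes in both lines. From the first member to 46 Mb (25 members, 13 of them expressed) the medians of the expressed members were 0.52 in RES-A and 1.03 in RES-B. Between 46 and 60 Mb (14 members, 7 expressed) they were 0.27 and 0.85, and from 60 Mb to the last member (20 members, 15 expressed) 0.51 and 0.95. In the first stretch all 25 members were at least 1.2-fold higher in RES-B, and 18 in RES-A, beside 36.9% and 31.9% of genes with at least 1 CPM.

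At the ends of the interval and beside the centromere the members behaved alike in direction. KLHDC3, a substrate receptor of cullin ligases and the first member in map order, measured 21.5 CPM in LNCaP, 23.8 in LNCaP-ENZ48, 30.7 for RES-A and 49.6 for RES-B. PRIM2, the large subunit of the DNA primase and the last member before the centromere gap, measured 4.30, 3.91, 6.47 and 6.89 CPM in the same order. Both resistant libraries were above both LNCaP libraries for either gene, and the share of all genes with this order was not taken. PTP4A1, a phosphatase and the first member beyond the centromere, measured 42.0, 32.0, 59.96 and 69.3 CPM. CASP8AP2, grouped here under transcription and chromatin and the last member, measured 7.47, 6.48, 13.7 and 14.8 CPM.

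Just outside the interval the change had no sharp edge on the short arm. The nearest expressed gene before it, MEA1, measured 45.4, 40.4, 79.2 and 82.2 CPM in the order above, a log2 ratio of 0.80 (RES-A) and 0.86 (RES-B). CNPY3 had ratios of 0.13 and 0.80 and C6orf226 0.74 and 0.20. Further out, and named after their values were seen, RPL7L1, TBCC and UBR2 had 0.39, 0.72 and 0.53 in RES-A and 0.74, 1.16 and 0.98 in RES-B, while BYSL had -0.15 and 0.11. On the long arm MANEA, the next expressed gene after CASP8AP2, was lower in both lines at -0.61 and -0.88, UFL1 had 0.07 and 0.33, and NDUFAF4 0.31 and 0.01.

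Over the rest of chromosome 6 the lines differed on the short arm. The 160 expressed genes before the interval had medians of 0.00 (RES-A) and 0.39 (RES-B), and the 121 after it 0.31 and 0.32. The whole chromosome (340 expressed genes) had medians of 0.18 and 0.44, while chromosome 21 had 0.46 in both lines, chromosome 12 had 0.22 in RES-A and chromosome 1 had 0.42 in RES-B. Of 257 bins of 10 Mb with at least 10 expressed genes across the genome, 7 had a median of at least 0.4 in both lines, and 4 of these were on chromosome 6. The bins from 40 to 50, 50 to 60 and 80 to 90 Mb had 0.47, 0.44 and 0.61 in RES-A and 0.89, 0.85 and 0.99 in RES-B, and the fourth, from 100 to 110 Mb, had 0.42 and 0.43. Inside the interval the bin from 70 to 80 Mb (11 genes) was lower, at 0.24 (RES-A) and 0.61 (RES-B). The other 3 bins with at least 0.4 in both lines lay on chromosomes 21 (2 bins) and 5. The region was picked for these same ratios, so nothing is read from this count of bins.

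**Figure D2:**
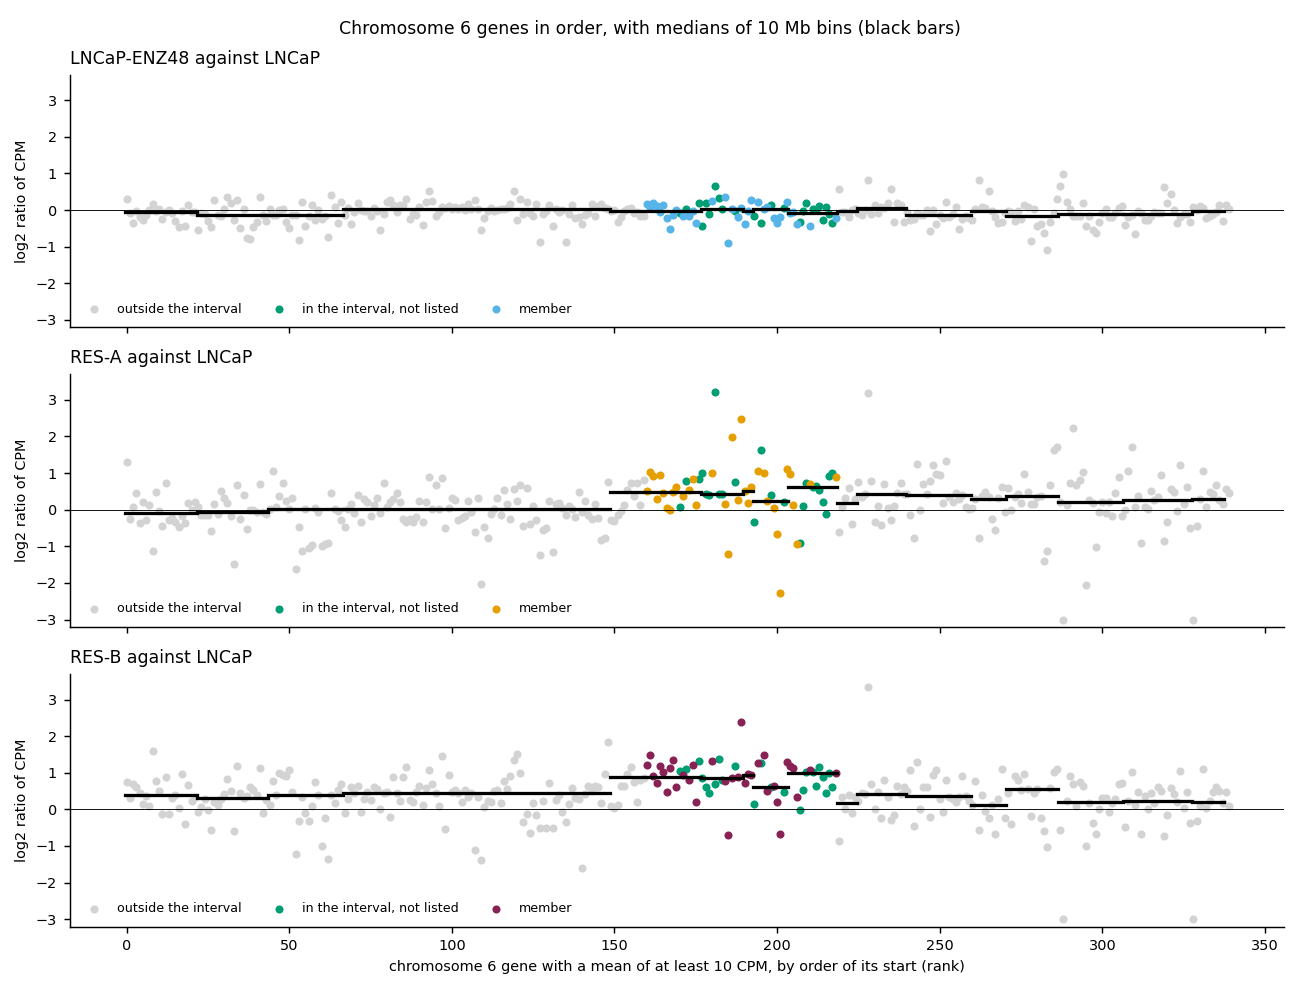
Log2 ratio of CPM against LNCaP (vertical axis) for the 340 expressed genes of chromosome 6 by the order of their starts (horizontal axis, rank) in LNCaP-ENZ48, RES-A and RES-B. Coloured points are members, green points unlisted genes of the interval and grey points the rest of the chromosome; black bars are medians of 10 Mb bins with at least 3 genes, and ratios past -3 are drawn at -3. The bars lie near 0 in LNCaP-ENZ48, step up to 0.47 at the interval in RES-A, and step from 0.43 to 0.89 in RES-B.

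Genes of the interval that were not on the list were much the same. Beside the 35 expressed members there were 24 such genes, with medians of 0.48 (RES-A) and 0.84 (RES-B). Of these 17 and 22 were at least 1.2-fold higher, beside 29% and 35.5% of all expressed genes. At least 1.2-fold lower were 2 and 0, beside 27.1% and 20.5%. The stretch itself was picked for its shift in these lines, so these values are a description too. The most abundant was HSP90AB1, the constitutive cytosolic chaperone that holds steroid receptors in a ligand-binding form, at 1012 CPM in LNCaP, 1029 in LNCaP-ENZ48, 1738 for RES-A and 2167 for RES-B. COX7A2, a subunit of cytochrome c oxidase, measured 535, 588, 709 and 814 CPM. Both were higher in RES-A than in LNCaP and higher again in RES-B, as were ICK (59.8, 61.4, 80.1 and 105 CPM) and PHIP (53.1, 55.2, 60.8 and 73.2 CPM). ME1, the cytosolic malic enzyme that makes NADPH, measured 67.0, 65.3, 72.4 and 96.4 CPM. The lowest ratios among the unlisted genes were those of RWDD2A, with -0.90 in RES-A and -0.02 in RES-B, SDHAF4 with -0.33 and 0.15, and RRAGD with -0.10 and 0.45.

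Genes for RNA processing and export were among the higher members. RRP36, a factor in ribosomal RNA maturation, measured 19.1 CPM in LNCaP, 19.9 in LNCaP-ENZ48, 39.0 for RES-A and 53.3 for RES-B, a log2 ratio of 1.03 (95% counting interval 0.92 to 1.14) in RES-A and 1.48 (1.37 to 1.59) in RES-B. CDC5L, a core spliceosome protein, measured 33.1, 32.6, 59.7 and 76.5 CPM. SYNCRIP, an RNA-binding protein of mRNA stability, measured 67.4, 49.4, 109 and 141 CPM. In each of these 3 genes the LNCaP libraries lay below RES-A and RES-A below RES-B. The share of all genes with that order was not taken. SYNCRIP was lower in LNCaP-ENZ48 than in LNCaP. XPO5, which exports microRNA precursors from the nucleus, was about level in RES-A (log2 ratio 0.04, interval -0.12 to 0.21) and higher in RES-B (0.49). Its 7 partners in microRNA processing and export had medians of 0.18 and 0.25, and the most abundant, RAN, measured 553, 509, 773 and 669 CPM. GTPBP2, a factor that rescues stalled ribosomes, measured 8.62, 6.07, 8.62 and 18.8 CPM, so it was lowest in LNCaP-ENZ48 and higher in RES-B alone. All 5 genes of this role were at least 1.2-fold higher in RES-B and 3 in RES-A, where 36.9% and 31.9% of genes with at least 1 CPM were.

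The 5 members for mitochondrial translation were at least 1.2-fold higher in both lines (beside 31.9% and 36.9% of genes with at least 1 CPM), with medians of 0.62 (RES-A) and 0.93 (RES-B). MRPL14, of the large mitochondrial ribosomal subunit, measured 100.5 CPM in LNCaP, 89.1 in LNCaP-ENZ48, 131 for RES-A and 192 for RES-B. MTO1, which modifies mitochondrial tRNAs, measured 8.54, 8.71, 17.2 and 24.1 CPM. MRPL2 (26.2, 29.9, 50.04 and 49.6 CPM) and MRPS18A (23.2, 23.1, 35.6 and 35.7 CPM) were higher in both lines to the same degree. AARS2, the mitochondrial alanyl-tRNA synthetase, had 0.39 in RES-A and 1.30 in RES-B. MTO1 lies in part across EEF1A1 on the opposite strand, and EEF1A1 had far more UMIs.

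The other 75 mitochondrial ribosomal proteins, encoded elsewhere, had medians of 0.17 (RES-A) and 0.15 (RES-B). Of these 29 were at least 1.2-fold higher and 8 lower in RES-A, beside 31.9% and 30% of genes with at least 1 CPM. In RES-B 23 were higher and 8 lower, beside 36.9% and 24%. The most abundant, MRPL41 on chromosome 9, measured 552, 490, 391 and 561 CPM, and was thus lower in RES-A and about level in RES-B.

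EEF1A1 held most of the members' UMIs. It measured 7143 CPM in LNCaP, 7575 in LNCaP-ENZ48, 8428 for RES-A and 10164 for RES-B, which was 79.5% to 82.2% of the members' summed UMIs in each library. Its log2 ratio was 0.24 in RES-A and 0.51 in RES-B, below the median of the members in both lines. It has many processed copies in the genome, and reads that match several genes are not counted, so the level is uncertain. The 6 other genes with symbols of cytosolic elongation factors and at least 1 CPM had medians of 0.18 (RES-A) and -0.24 (RES-B). Of these only EEF1E1, also on chromosome 6, was above 0 in RES-B (0.33), and EEF1G had a mean of 1.92 CPM. EEF2, which moves the ribosome along the mRNA, measured 1723, 1861, 1956 and 1566 CPM.

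Of the 7 members for transcription and chromatin, 5 were at least 1.2-fold higher in RES-A and all 7 in RES-B, beside 31.9% and 36.9% of genes with at least 1 CPM, and SRF was lower in RES-A. POLR1C, a subunit shared by RNA polymerases I and III, measured 14.5 CPM in LNCaP, 14.1 in LNCaP-ENZ48, 27.8 for RES-A and 33.0 for RES-B. HMGN3, a nucleosome-binding protein, measured 73.6, 85.3, 157 and 181 CPM, a log2 ratio of 1.1 and 1.30. POLR1C had log2 ratios of 0.94 (RES-A) and 1.18 (RES-B), and HMGN3 was a little higher in LNCaP-ENZ48 than in LNCaP. PHF3, which binds the tail of RNA polymerase II, had 0.19 in RES-A and 0.95 in RES-B, and ZNF451 had 0.27 and 0.88. Of the 13 other polymerase I and III genes 4 were higher and 3 lower in RES-A, beside 31.9% and 30% of genes with at least 1 CPM. In RES-B 3 were higher and 2 lower, beside 36.9% and 24%. The most abundant, POLR1D, measured 200.2, 221, 302 and 262 CPM.

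Members for DNA replication and mitosis moved less in RES-A, with a median of 0.33, than in RES-B, with 0.62. MAD2L1BP, which silences the spindle checkpoint, had 0.49 and 1.35, PRIM2 0.59 and 0.68, the kinetochore subunit CENPQ 0.17 and 0.57, and the translesion polymerase POLH 0.05 and 0.30. POLH also had one of the larger values after 48 h of enzalutamide, at 6.41 CPM in LNCaP and 4.37 in LNCaP-ENZ48 (log2 ratio -0.55, interval -0.79 to -0.31). All 4 members of this role had log2 ratios below 0 in LNCaP-ENZ48, where only 4605 of 12602 genes with at least 1 CPM were above 0. Of the 4, POLH alone was at least 1.2-fold lower, beside 23.4% of those genes. LNCaP-ENZ48 had 82.3% of its cells called G1 against 68.4% to 74% in the other libraries, and the part of the cell cycle in these ratios was not tested. PRIM1, the small primase subunit on chromosome 12, measured 17.5, 13.4, 26.6 and 20.4 CPM. The 4 partners of CENPQ encoded elsewhere had medians of -0.21 (RES-A) and 0.04 (RES-B). None was at least 1.2-fold higher in either line, beside 31.9% and 36.9% of genes with at least 1 CPM. The most abundant of them, ITGB3BP, measured 45.5, 44, 38.1 and 51.7 CPM.

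In the ubiquitin and SUMO group BAG2 had the highest ratios of any expressed member. BAG2, a co-chaperone of HSP70 that restrains the ubiquitin ligase CHIP (chr6:57172326-57189833), measured 6.41 CPM in LNCaP, 6.69 in LNCaP-ENZ48, 36.0 for RES-A and 33.2 for RES-B. That was 5.61-fold in RES-A and 5.18-fold in RES-B, and the level hardly differed between the LNCaP libraries. It overlaps RAB23 on the opposite strand, a small GTPase of hedgehog signalling that measured 1.91, 2.20, 3.12 and 4.79 CPM. FBXO9, an F-box protein, measured 78.3, 99.6, 87.7 and 135 CPM, so LNCaP-ENZ48 was above RES-A. IBTK, which links substrates to cullin ligases, had 0.12 in RES-A and 1.13 in RES-B. CUL9 had 0.63 and 0.69, UBE3D 0.58 and 0.47, and KLHDC3 0.52 and 1.21. With cells thinned to 5000 UMIs UBE3D was at -0.069 in RES-B, from few UMIs, as 1.57% of thinned LNCaP cells had one.

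SENP6, a SUMO protease, measured 71.0 CPM in LNCaP, 55.1 in LNCaP-ENZ48, 44.9 for RES-A and 82.2 for RES-B, and CUL7 measured 4.24, 4.47, 3.30 and 6.49 CPM. Both were lower than LNCaP in RES-A and higher in RES-B. With cells thinned to 5000 UMIs CUL7 was at 0.14 in RES-A, from few UMIs, as 1.63% of thinned LNCaP cells had one. The 9 other genes of cullin ligases with at least 1 CPM had medians of 0.06 (RES-A) and 0.29 (RES-B). In RES-A 3 of them were higher and 3 lower, beside 31.9% and 30% of genes with at least 1 CPM. In RES-B 5 were higher and 2 lower, beside 36.9% and 24%. The adaptor SKP1 measured 499, 560, 605 and 669 CPM.

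The metabolic members held values in both directions. GCLC, the catalytic subunit of glutamate-cysteine ligase, which starts glutathione synthesis, measured 8.50 CPM in LNCaP, 8.61 in LNCaP-ENZ48, 33.9 for RES-A and 15.4 for RES-B. RES-A was thus 3.99-fold and RES-B 1.81-fold above LNCaP. Its partner GCLM, the regulatory subunit, on chromosome 1, measured 137, 91.7, 75.2 and 145 CPM and was lower in RES-A. None of the 4 glutathione genes elsewhere was at least 1.2-fold higher in RES-A or RES-B, beside 31.9% and 36.9% of genes with at least 1 CPM. Their medians were -0.56 and -0.77. The unlisted neighbour GSTA1, a glutathione transferase named after its values were seen, measured 16.6, 26, 154 and 26.8 CPM, and it has near copies beside it.

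ELOVL5, which elongates polyunsaturated fatty acids, was lower in both lines, as was MYO6. It measured 49.0 CPM in LNCaP, 26.2 in LNCaP-ENZ48, 21.3 for RES-A and 30.3 for RES-B, so that all 3 libraries from enzalutamide were below LNCaP, by log2 ratios of -0.90, -1.20 and -0.69. Its ratio in LNCaP-ENZ48 was the largest in size of any member. PGM3, of the pathway to UDP-N-acetylglucosamine, measured 33.5, 26, 17.6 and 42.0 CPM, lower in RES-A and higher in RES-B. BCKDHB, of branched-chain amino acid breakdown, measured 9.76, 9.17, 19.2 and 22.4 CPM, and DNPH1, a nucleotide hydrolase, 145, 157, 177 and 241 CPM. Of the 4 partners of BCKDHB with at least 1 CPM, 1 was higher and 1 lower in RES-A, beside 31.9% and 30% of genes at that minimum. In RES-B 2 were higher and 1 lower, beside 36.9% and 24%. DLD, the shared E3 subunit, measured 56.3, 57.9, 77.1 and 92.0 CPM.

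All 8 members for membrane transport were at least 1.2-fold higher in RES-B, with a median of 0.87, and 5 were in RES-A, with a median of 0.58, beside 36.9% and 31.9% of genes with at least 1 CPM. TMEM14A, a small membrane protein of mitochondria, measured 63.0 CPM in LNCaP, 75.2 in LNCaP-ENZ48, 126 for RES-A and 156 for RES-B. SLC29A1, the equilibrative nucleoside transporter, measured 4.28, 3.48, 9.05 and 8.98 CPM. LMBRD1, which exports cobalamin from lysosomes, measured 9.66, 11.7, 14.9 and 18.4 CPM. For each of the 3 both resistant libraries were above both LNCaP libraries. The region was picked for higher ratios in these lines, and the share of all genes with this order was not taken. TMEM30A, the subunit that phospholipid flippases need to leave the endoplasmic reticulum, had 0.04 in RES-A and 0.63 in RES-B. Of 7 flippases with at least 1 CPM, 3 were higher and 3 lower in RES-A, beside 31.9% and 30% of genes with at least 1 CPM. In RES-B 5 were higher and 1 lower, beside 36.9% and 24%. The flippase ATP11A measured 15, 22.4, 10.3 and 76.9 CPM. SLC17A5, the lysosomal sialic acid exporter, measured 9.62, 7.46, 7.97 and 12.1 CPM.

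The 11 members for cytoskeleton, polarity and trafficking held the lowest ratio of all members and one of the highest. MYO6 (chr6:75749201-75919537) measured 494 CPM in LNCaP, 436 in LNCaP-ENZ48, 102 for RES-A and 309 for RES-B. Its log2 ratio was -2.27 (interval -2.31 to -2.23) in RES-A and -0.68 (-0.71 to -0.65) in RES-B. SENP6, the member before it on the map, was also lower in RES-A, and HMGN3, the member after it, was higher in both lines. DST, a linker of intermediate filaments, actin and microtubules, measured 3.05, 2.32, 10.5 and 18.0 CPM, 3.43-fold and 5.92-fold above LNCaP. SMAP1, a GTPase activator for ARF6, measured 18.3, 21.1, 37.9 and 44 CPM. FAM135A measured 3.07, 3.39, 1.29 and 3.65 CPM and was lower in RES-A alone. Of the 11, 7 were at least 1.2-fold higher in RES-A and 8 in RES-B, and 2 and 1 at least 1.2-fold lower, beside 31.9% and 36.9% higher and 30% and 24% lower among genes with at least 1 CPM. CD2AP, a scaffold at cell junctions and in endocytosis, measured 48.1, 37.9, 52.5 and 55.8 CPM and was between the limits in both lines, and LRRC1 was between them in RES-A (0.09) and past 1.2-fold in RES-B (0.33).

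Of the 4 cell surface members TPBG, an oncofetal glycoprotein of the plasma membrane, had the highest ratio of RES-B to LNCaP. TPBG had 0 UMIs in LNCaP, where the limit of 3 UMIs stands for 0.0598 CPM, 1 UMI in LNCaP-ENZ48, 21 UMIs (0.366 CPM) in RES-A and 344 UMIs (6.54 CPM) in RES-B. That is at least 6.13-fold higher in RES-A and at least 110-fold higher in RES-B than in LNCaP. TNFRSF21, death receptor 6, measured 3.39, 4.14, 7.76 and 2.85 CPM and was highest in RES-A. PTK7, a pseudokinase of Wnt signalling, measured 5.86, 6.07, 4.69 and 11.6 CPM, and ENPP4, an ectonucleotidase, 5.88, 5.56, 5.56 and 8.2 CPM.

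**Figure D3:**
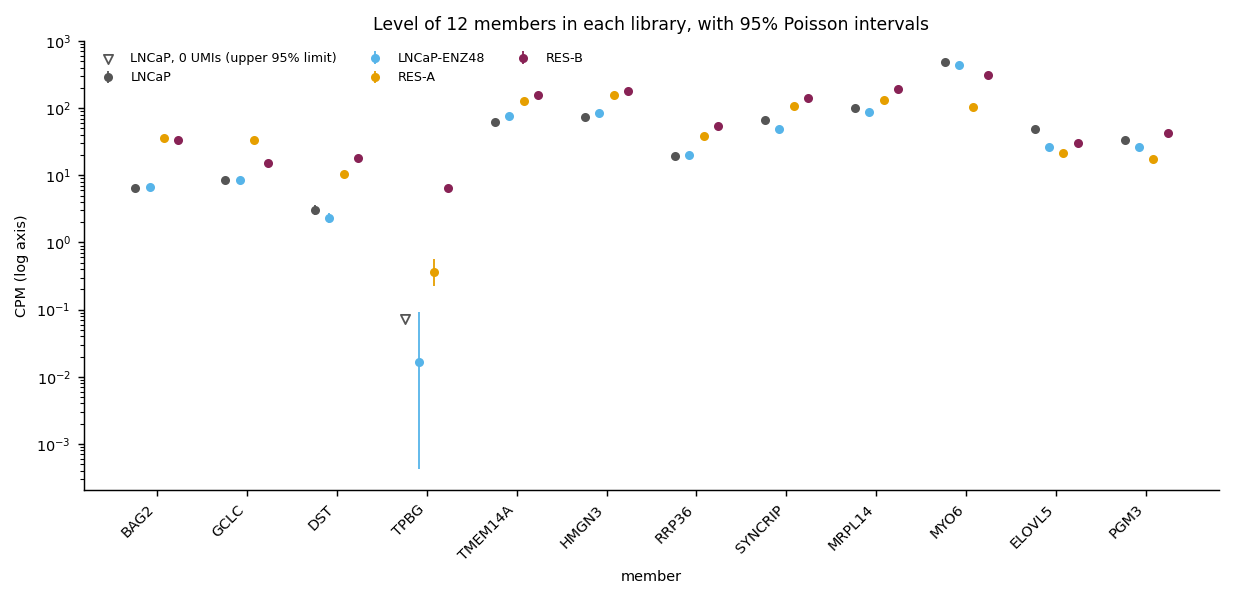
Level in CPM (vertical axis, log scale) of 12 members (horizontal axis), 1 point of its own colour for each library, with 95% Poisson intervals that cover counting error only; the open triangle is the upper 95% limit for TPBG in LNCaP, which had 0 UMIs. BAG2, DST, TMEM14A, HMGN3, RRP36, SYNCRIP and MRPL14 lie higher in both resistant libraries, GCLC is highest in RES-A at 33.9 CPM, TPBG in RES-B at 6.54 CPM, and MYO6 is lowest in RES-A at 102 CPM.

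**Figure D4:**
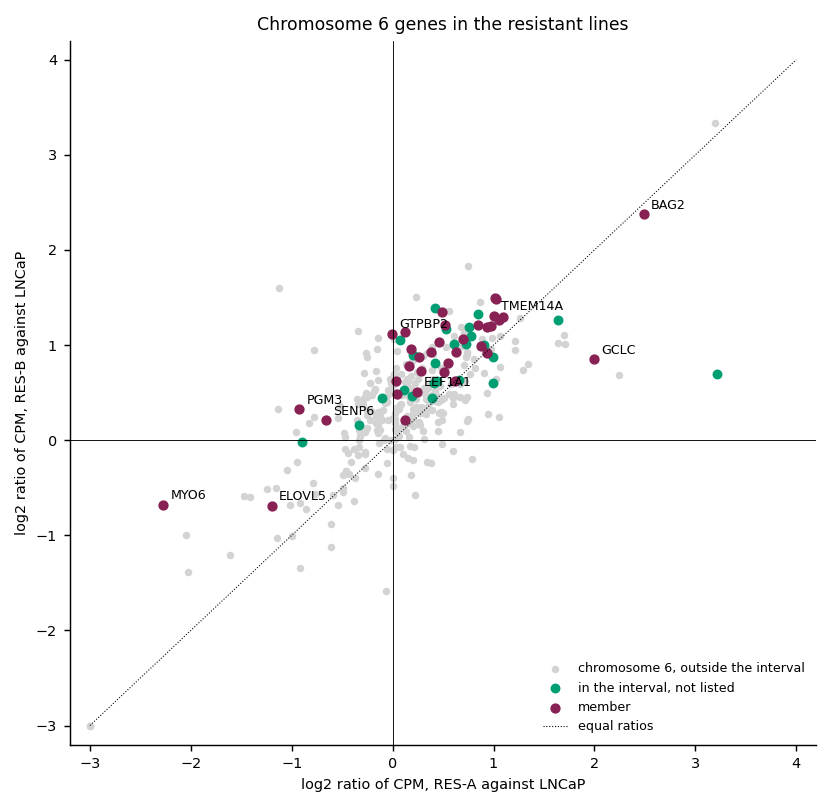
Log2 ratio of CPM against LNCaP in RES-A (horizontal axis) and RES-B (vertical axis) for expressed genes of chromosome 6, 1 point for each gene: members, unlisted genes of the interval and the rest of the chromosome, with ratios past -3 drawn at -3. Both ratios share the LNCaP library. Most members lie above the dotted line of equal ratios (32 of 35 had a higher level in RES-B, beside 4403 of 7455 expressed genes). GCLC lies below the line, and MYO6 and ELOVL5 lie in the lower left.

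A sum over the members hides this spread. Without EEF1A1 the members summed to 1750 CPM in LNCaP, 1644 in LNCaP-ENZ48, 1842 for RES-A and 2623 for RES-B, a log2 ratio of 0.07 (RES-A) and 0.58 (RES-B). MYO6 made up 28.3% of that sum in LNCaP and 5.56% in RES-A. Leaving MYO6 out as well, a choice made after its values were seen, gave 1256, 1208, 1740 and 2314 CPM and ratios of 0.47 and 0.88.

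The higher levels were spread over the cells of each resistant library. With every cell thinned to 5000 UMIs and neither EEF1A1 nor MYO6 counted, the members took a median of 0.12% of a cell's UMIs in LNCaP, 0.1% in LNCaP-ENZ48, 0.16% for RES-A and 0.22% for RES-B, with 10th to 90th percentiles of 0.06% to 0.2%, 0.06% to 0.2%, 0.1% to 0.26% and 0.14% to 0.32%. The share of cells at or above the LNCaP median was 53.1% (exact 95% binomial interval 50.7 to 55.4) in LNCaP, 49.9% (48.4 to 51.4) in LNCaP-ENZ48, 84.6% (83.5 to 85.6) in RES-A and 95.4% (94.7 to 96.0) in RES-B. The distributions overlapped, since 8.81% of LNCaP cells reached the RES-B median. In cells called G1 the medians were 0.12%, 0.1%, 0.16% and 0.22%. With MYO6 counted the medians were 0.16%, 0.16%, 0.18% and 0.26%, and unthinned 0.16%, 0.15%, 0.18% and 0.26%. MYO6 gave a UMI in 87.4% of thinned LNCaP cells, 85.2% in LNCaP-ENZ48, 39.9% for RES-A and 72.9% for RES-B. No cell type that should lack these genes was present, so the share that free RNA gives was not measured.

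**Figure D5:**
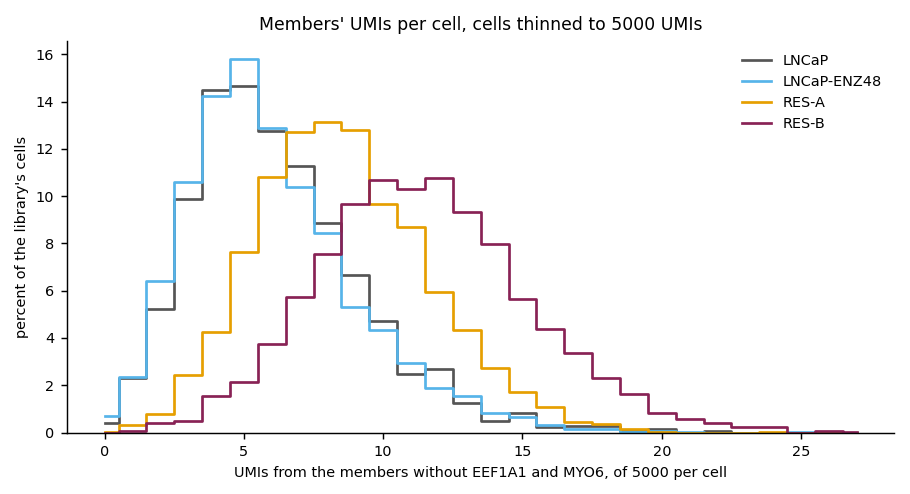
Percent of a library's kept cells (vertical axis) by the number of UMIs from the members without EEF1A1 and MYO6 (horizontal axis), after thinning each cell to 5000 UMIs, with 1 line for each of the 4 libraries. The lines of LNCaP and LNCaP-ENZ48 lie on each other, and those of RES-A and RES-B are shifted to the right as single humps; cells are not replicates.

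The members not yet given with values lay inside the ranges above. They had log2 ratios of -0.28 (SRF) to 0.79 (ABCC10) in RES-A and of 0.33 (SRF) to 1.04 (ABCC10 and KLC4) in RES-B, with YIPF3 at 0.46 and 1.03, SLC35B2 at 0.54 and 0.81, TJAP1 at 0.37 and 0.77, TMEM63B at 0.17 and 0.66, ZNF318 at 0.60 and 0.97, and CYB5R4 at 0.54 and 0.40. Of all 59 members 34 overlapped a gene on the other strand in GENCODE 44, and 4 overlapped a gene on the same strand, none of them a gene with at least 1 CPM. BAG2, EEF1A1, HMGN3, PRIM2 and PTP4A1 have near copies elsewhere, so their levels are uncertain.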

How the data were processed

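Single-cell 3′ libraries (10x Genomics, v3) had been made from the 4 groups, 1 library each, after sorting for living cells. The authors deposited UMI counts per gene and barcode, made per the submitters' processing notes with Cell Ranger 3.0.2 on GRCh38, and no normalization had been applied to them. Gene positions were taken from GENCODE 44. Cells were kept by the limits of the study's methods for each library: 3000 to 7000 genes, 16000 to 50000 UMIs and under 15% mitochondrial UMIs in LNCaP, and 1500 to 5000 genes, 5000 to 25000 UMIs and under 15%, 17% and 20% in LNCaP-ENZ48, RES-A and RES-B. Doublets were not removed and no caller was run. UMIs were summed per library and scaled to CPM, since cells are not replicates. With 1 library per group no test could be run, and ratios are log2 ratios of CPM with exact conditional binomial 95% intervals. Levels have exact Poisson 95% intervals. Intervals and the limit of 3 UMIs cover counting error only. Where a library had 0 UMIs the ratio was taken against 3 UMIs, and none was given where both libraries had at most 3. Counts of members use a fold of 1.2.

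The members, the role groups and the lists of partner genes were chosen with earlier results of these data known. Values in every library were given by rule for members at the ends of each side of the centromere, the highest ratios and levels in each stretch, the lowest ratios, the largest differences between the resistant lines and the largest in LNCaP-ENZ48. The rule also took the 3 expressed genes on either side, 5 unlisted genes by level and 3 by lowest ratio, and the most abundant partner in each of 10 lists. Values of the other members complete their role groups, and non-members outside the rule are said to be named after their values were seen. Phases were called with scanpy 1.11.5, without CASP8AP2. Alternatives used TMM factors (edgeR 4.0.16, R 4.3.3), DESeq2 1.42.0 size factors, other cell filters, other minimum levels, other folds and other member sets. Tables were made with numpy 2.4.6, scipy 1.17.1 and pandas 2.3.3, and the ratio code was tested on simulated data.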

Additional observations from a re-analysis of the deposited data

Results flagged for a closer look

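Of the 59 members 6 had opposite signs in the resistant lines, with log2 ratios to LNCaP whose counting intervals lay below 0 in RES-A and above 0 in RES-B. The share of all genes that meet this rule was not taken, so the count has no background to be read against. With 1 library per line the difference was not tested, and both ratios share the LNCaP library. PGM3 had -0.93 in RES-A and 0.32 in RES-B, SENP6 had -0.66 and 0.21, and SLC17A5 had -0.27 and 0.33. SRF, a transcription factor of immediate early and cytoskeletal genes, had -0.28 and 0.33. CUL7 had -0.36 and 0.61 and PTK7 -0.32 and 0.98, and for both the value in RES-A turned to above 0 when each cell was thinned to 5000 UMIs, at 0.14 and 0.10. The thinned values come from 1 random draw, are given without an interval and rest on few UMIs. Of thinned LNCaP cells 1.63% had a UMI of CUL7 and 2.36% one of PTK7. PGM3 and SENP6 are on the long arm stretch, CUL7, PTK7 and SRF in the first stretch.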

How the results depend on the processing

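Of 192 values of the list under other settings 130 moved by less than their error or stayed within 1.5 times the count, 59 moved further and 3 changed sign. Of 1888 values of single members 1676 stayed, 208 moved and 4 changed sign, all 4 with cells thinned to 5000 UMIs: TNFRSF21 in LNCaP-ENZ48 (-0.34), CUL7 (0.14) and PTK7 (0.10) in RES-A, and UBE3D in RES-B (-0.069). Each of these 4 came from 1 random draw of UMIs and is given without an interval. The median of the members less that of all genes was 0.49 in RES-A and 0.82 in RES-B, which scaling cannot change, since it adds 1 constant to every log2 ratio. TMM scaling took the median of all genes in RES-B from 0.11 to 0.01 and against LNCaP-ENZ48 from 0.20 to -0.01.

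Values below are medians of the members, then log2 ratios of their sum without EEF1A1. With TMM scaling the medians were 0.83 (RES-B against LNCaP), 0.41 (RES-A against LNCaP-ENZ48) and 0.85 (RES-B against LNCaP-ENZ48), and with DESeq2 size factors 0.83, 0.42 and 0.85. The sums of LNCaP-ENZ48, RES-A and RES-B against LNCaP were 0.0051, 0.021 and 0.48 with TMM scaling and 0.011, 0.035 and 0.48 with DESeq2 size factors, so the sign in LNCaP-ENZ48 turned. RES-B against RES-A was 0.46 and 0.45, RES-A against LNCaP-ENZ48 0.016 and 0.024, and RES-B against LNCaP-ENZ48 0.47 and 0.47. In both scalings 6 members were at least 1.2-fold higher in LNCaP-ENZ48, beside 12.8% (TMM) and 13.2% (DESeq2) of all expressed genes. With totals that left out mitochondrial and ribosomal protein genes that count was 1, beside 5.63% of all expressed genes. The medians in RES-B were then 0.85 and, against LNCaP-ENZ48, 0.98. The sums in the order above were -0.11, 0.029, 0.50, 0.47, 0.13 and 0.60.

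With all barcodes the sum in LNCaP-ENZ48 was -0.10, and with 1 filter for all libraries that of RES-B against LNCaP-ENZ48 was 0.69. In cells called G1 the sums were 0.029 (RES-A), 0.55 (RES-B), 0.13 and 0.64 (both against LNCaP-ENZ48), with a median of 1.00 for the last. Thinned, the sums against LNCaP-ENZ48 were 0.14 and 0.66. Without the cells of highest UMI count 1 member was higher in LNCaP-ENZ48, beside 6.41% of all expressed genes. With a minimum of 1 CPM the medians in RES-B were 0.88 and, against LNCaP-ENZ48, 0.89, and with 50 CPM 0.38 (RES-A) and 0.78 (RES-B) against LNCaP. All expressed genes of the interval had 0.51 and 0.97 against LNCaP-ENZ48, and the members without near copies 0.51 and 0.98. At a fold of 1.1, 8 members were higher in LNCaP-ENZ48. At 1.5, 0 were higher in LNCaP-ENZ48, 15 in RES-A, and 11 when RES-B was set against RES-A. The share of all expressed genes past these folds was not taken, so these counts have no background to be read against. With EEF1A1 the sums were 0.052 (LNCaP-ENZ48, sign turned), 0.21, 0.52, 0.32 (RES-B against RES-A) and 0.47 (RES-B against LNCaP-ENZ48). Without MYO6 they were -0.056, 0.47, 0.88, 0.41, 0.53 and 0.94, a setting chosen after seeing the data. The cause of these shifts was not tested beyond the settings' own construction. No paired analysis was possible because each group was 1 library and no test was run. Members under 10 CPM rest on few UMIs, and for them small ratios were not detectable at this depth.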
